A study of Mus musculus with 6 samples.

Results

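The lysosome is the acidic organelle in which cells digest proteins, lipids, glycans and worn-out organelles that reach it by endocytosis and autophagy. Its soluble hydrolases are delivered by mannose 6-phosphate receptors, its glycosylated membrane proteins line and protect it, and a proton pump keeps it acidic. Many of its genes share an E-box, the CACGTG element bound by TFEB and the related factors TFE3 and MITF, and TFEB itself is held in the cytoplasm by mTORC1 when nutrients are plentiful. In the intestinal epithelium lysosomes also handle lipids and proteins taken up from the lumen.

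The genes described here are 35 lysosomal hydrolase, membrane and regulator genes, a fixed list of symbols matched to Ensembl identifiers, out of 53953 rows in each library. The list uses no measured value, although it was chosen with earlier results of these data known, and all 35 were found. The libraries came from organoids, crypt-derived epithelial cultures of the proximal small intestine of C57BL/6 wt mice, at passage 3 to 5. One group of 3 libraries came from organoids kept with arachidonic acid, a polyunsaturated fatty acid of the omega-6 series, during the 3 days that preceded passaging. Its concentration is not known here. The other 3 had the vehicle, 0.1% ethanol, and RNA of both groups was taken on day 3 after passaging. The labels do not tell if replicates were separate animals or cultures, so the p-values measure only how these 6 libraries spread, and that spread may be technical.

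Values are FPKM, fragments per kilobase of transcript scaled to the fragments of the library, so levels of different genes can be compared. The values imply 35.6 to 50.8 M (mega) fragments per library, and a tested lysosomal gene rested on 56 to 31623 fragments in a library. On the first principal component, which held 85.2% of the variance of the tested genes, arachidonic acid replicate 1 lay at 10.2, between the vehicle libraries (-41.6 to -40.4) and arachidonic acid replicates 2 and 3 (58.1 and 54.6), so results are also given without it. All 8 epithelial markers were above 1 FPKM in every library, and several moved with the groups. Epcam was at 534 to 569.7 FPKM with vehicle and 314 to 455 FPKM with arachidonic acid and Cdx2 at 93.3 to 113 and 79.5 to 88.6 FPKM, and both fell. The keratin genes Krt8, Krt18 and Krt19 rose (log2 fold change 1.097, 1.49 and 0.96), and Vil1, at 377 to 427 and 432 to 479.6 FPKM, did not pass. All 5 endothelial markers and 8 of 9 mesenchymal markers were under 1 FPKM in every library, as were 11 of 14 leukocyte markers. The remaining mesenchymal marker, Vim, fell, from 4.13 to 5.66 FPKM with vehicle to 0.373 to 1.46 FPKM with arachidonic acid (log2 fold change -1.70). Markers of single epithelial cell types moved with the groups too. The summed FPKM of 7 Paneth cell markers was 1940.5 to 2898 with vehicle and 461 to 991 with arachidonic acid (1 higher, 5 lower), and that of 6 goblet cell markers 901 to 1095 and 242 to 445 (4 lower of 4 tested). Of 8 enterocyte markers Fabp1, at 313 to 412 and 1617 to 4094 FPKM, and Alpi rose and 4 fell. The summed FPKM of all 8 was 1329 to 1659.9 with vehicle and 2001 to 5095 with arachidonic acid, while the sum of the 7 other than Fabp1, taken after the values were seen, was 1016 to 1248 and 1001, 463 and 384. Their part in the results below was not tested, and in these bulk libraries fewer cells of a type and less RNA per cell cannot be told apart.

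Of the 35 genes 34 had a mean over the 6 libraries of 1 FPKM or more and were tested, and each of those had a vehicle mean above that level. With arachidonic acid 18 rose, 5 fell and 11 did not pass the test (limma on log2(FPKM + 1), Benjamini-Hochberg adjusted p under 0.05 over 12913 genes). That is 52.9% higher and 14.7% lower, against 20.8% higher and 19.4% lower (40.2% in either direction) among all tested genes. The median log2 fold change, arachidonic acid minus vehicle, was 0.27, and -0.03 over all tested genes. All 3 arachidonic acid libraries lay above all vehicle libraries for 19 of the 34 and below them for 7, where the shares over all tested genes were 27.6% and 27.5% (55% in either direction). The summed level of the 35 genes was 2516, 2519 and 2454 FPKM with vehicle and 2826, 3119.6 and 3067 FPKM with arachidonic acid, or 0.315% to 0.326% and 0.374% to 0.420% of all FPKM of a library. Without arachidonic acid replicate 1 the counts were 21 higher and 6 lower, with 27.5% and 32.4% of all tested genes called higher and lower (59.8% in either direction), and the median was 0.36. Replicate 1 was the lowest of its group for 15 of the 18 genes that rose and the highest for all 5 that fell.

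**Figure D1:**
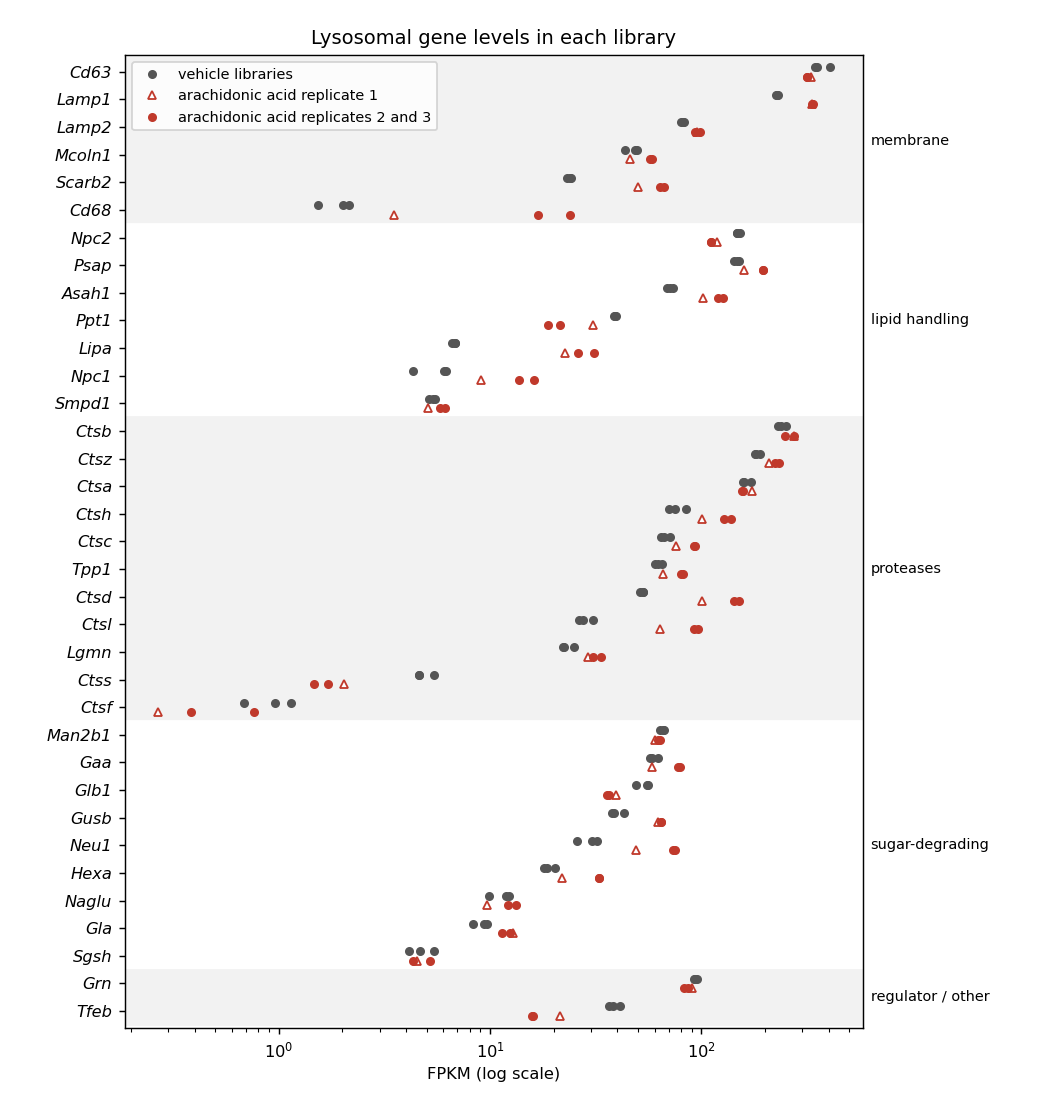
FPKM of each of the 35 lysosomal genes on a log axis, grouped by role, with 1 grey point per vehicle library, an open red triangle for arachidonic acid replicate 1 and red points for replicates 2 and 3. For Cd68, Ctsl, Ctsd, Lipa and Scarb2 the 3 red marks lie to the right of all grey ones, for Tfeb and Ctss to the left.

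Tfeb (ENSMUSG00000023990), the transcription factor regarded as the chief activator of lysosomal genes, fell. It was at 41.0, 38.1 and 36.6 FPKM in the vehicle libraries, against 21.3, 15.9 and 15.7 FPKM in the arachidonic acid libraries. Every arachidonic acid library lay well under the lowest vehicle library, and the log2 fold change was -1.10 (SE 0.13, adjusted p = 0.0017). Among the lysosomal genes it ranked between 19 and 21 by level with vehicle and between 27 and 29 with arachidonic acid. Its relative Tfe3 did not pass, with 13.3 ± 0.958 FPKM under vehicle and 12.5 ± 0.415 FPKM under arachidonic acid (mean ± SD, n = 3, as for all values given with ±; adjusted p = 0.42), and Mitf and Tfec were at most 0.104 and 0.265 FPKM in any library. These are transcript levels and say nothing of where the TFEB protein was. Grn, which encodes progranulin, a lysosomal protein precursor, did not pass, although its values of 93.0, 95.7 and 92 FPKM with vehicle all lay above those of 90.7, 86.7 and 82.7 FPKM with arachidonic acid (adjusted p = 0.18).

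RefSeq windows on GRCm38.p6, from 250 bases before to 50 after a start site, were at hand for 31 of the 35 genes. CACGTG, which reads the same on both strands, stood in a window of 12 of the 31 genes (38.7%), against 8.09% of 27025 genes in the RefSeq table and 12.1% of the 9112 of those tested here. The longer palindrome known as the CLEAR element, CACGTG with GT before it and AC after it, stood in 0 of the 31 genes, against 0.370% of the 27025 and 0.856% of the 9112. Only this exact run of 10 bases was searched for. At shares this low 31 genes would seldom hold it, so the 0 does not set them apart from other genes. Lamp1 and Ctsd, both of which rose, held 4 and 2 matches, and Lipa, which rose further, held none. Their 250 bases before the start site are shown for that contrast, 5′ to 3′ on the gene's strand, with each CACGTG in capitals. They lie at chr8:13158911-13159160 (plus strand), chr7:142387828-142388077 (minus strand) and chr19:34527475-34527724 (minus strand).
Lamp1: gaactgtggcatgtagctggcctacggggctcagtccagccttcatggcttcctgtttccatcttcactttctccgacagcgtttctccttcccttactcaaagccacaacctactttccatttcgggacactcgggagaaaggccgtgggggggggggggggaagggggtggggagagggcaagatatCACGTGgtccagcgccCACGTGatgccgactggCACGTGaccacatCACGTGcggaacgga
Ctsd: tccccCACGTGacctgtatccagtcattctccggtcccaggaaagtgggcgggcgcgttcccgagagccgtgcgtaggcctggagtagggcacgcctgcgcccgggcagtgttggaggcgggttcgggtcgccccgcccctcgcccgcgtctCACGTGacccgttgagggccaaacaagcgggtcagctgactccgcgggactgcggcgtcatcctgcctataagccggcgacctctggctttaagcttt
Lipa: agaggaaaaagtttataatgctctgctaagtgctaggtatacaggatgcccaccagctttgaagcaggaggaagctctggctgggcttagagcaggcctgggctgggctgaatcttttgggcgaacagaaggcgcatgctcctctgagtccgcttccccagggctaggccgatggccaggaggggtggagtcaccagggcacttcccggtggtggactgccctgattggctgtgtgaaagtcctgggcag

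In Lamp1 the 4 matches began 61, 45, 28 and 15 bases before the start site. For the other genes the match closest to the start site among those before it is shown with 10 bases on either side, to let the flanks be compared. Of these Gla, Ctsl and Lgmn rose, Glb1 fell, Ctsa, Gaa, Mcoln1, Naglu and Sgsh did not pass the test, and Ctsf was too low to be tested.
Gla, chrX:134601184-134601209, minus strand: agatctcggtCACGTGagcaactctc
Ctsl, chr13:64370741-64370766, minus strand: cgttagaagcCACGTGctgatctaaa
Lgmn, chr12:102439126-102439151, minus strand: gaatgtctgtCACGTGgtccatttta
Glb1, chr9:114401020-114401045, plus strand: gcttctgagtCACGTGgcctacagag
Ctsa, chr2:164833751-164833776, plus strand: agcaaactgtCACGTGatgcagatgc
Gaa, chr11:119267813-119267838, plus strand: tctgtgcgatCACGTGtttgactctg
Mcoln1, chr8:3500464-3500489, plus strand: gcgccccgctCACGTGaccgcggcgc
Naglu, chr11:101070011-101070036, plus strand: accttcaggtCACGTGgcccgaggtc
Sgsh, chr11:119355524-119355549, minus strand: gcctgccgtgCACGTGaccgtgggga
Ctsf, chr19:4855076-4855101, plus strand: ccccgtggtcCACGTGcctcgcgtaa

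Of the 19 matches in these genes 13 began within 100 bases before the start site. Of the 12 genes with CACGTG in a window 5 rose, 1 fell, 5 did not pass and 1 was not tested, and their median log2 fold change was 0.26. Of the 19 genes with no match in a window 10 rose, 4 fell and 5 did not pass, with a median likewise of 0.26. Over all tested genes 20.8% were higher and 19.4% lower. Scarb2, Neu1, Asah1 and Npc1, all of which rose, were among the genes with no match or had no window. A match is a run of letters and not a measured binding site.

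**Figure D2:**
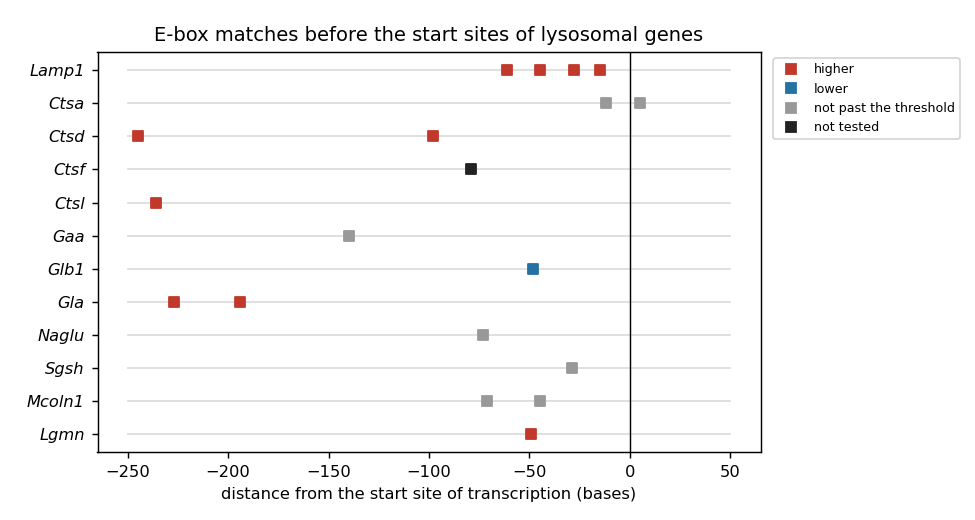
Positions of CACGTG in the promoter windows of the 12 lysosomal genes that hold it, in bases from the start site, with squares coloured by whether the gene was higher, lower, not past the threshold or not tested. The 4 squares of Lamp1 lie within 61 bases before the start site, while those of Gla, and the square of Ctsl at 236 bases before it, lie farther out.

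Among the 6 membrane proteins 4 rose and none fell (all tested genes, 20.8% higher and 19.4% lower). Lamp1 (ENSMUSG00000031447), with Lamp2 a main glycoprotein of the lysosomal membrane, was at 226, 229 and 228 FPKM with vehicle and 332, 332 and 336 FPKM with arachidonic acid. The 3 values of each group lay within a few FPKM of each other, replicate 1 included, and the log2 fold change was 0.55 (SE 0.05, adjusted p = 0.001). Cd63, a tetraspanin of late endosomes, was the highest of the 35 genes in every vehicle library, at 404, 354 and 345 FPKM, and stood second to Lamp1 in every arachidonic acid library, at 328, 315 and 317 FPKM. Its log2 fold change was -0.20 (adjusted p = 0.079, and 0.044 without arachidonic acid replicate 1). The ratio of Lamp1 to Cd63 was between 0.559 and 0.661 with vehicle and between 1.012 and 1.061 with arachidonic acid. Lamp2, the receptor of chaperone-mediated autophagy in one of its isoforms, rose less, from 79.6, 81.6 and 82.3 to 95.5, 93.1 and 97.9 FPKM (log2 fold change 0.23, adjusted p = 0.016). That call was lost without vehicle replicate 1 or 2 and when arachidonic acid replicate 3 was left out (adjusted p = 0.062 to 0.077). The ratio of Lamp1 to Lamp2 was 2.81 ± 0.0330 with vehicle and 3.49 ± 0.0690 with arachidonic acid.

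Scarb2 (ENSMUSG00000029426), or LIMP-2, an abundant lysosomal membrane protein that also serves as a sorting receptor, rose from 23.1, 23.8 and 24.1 to 50.2, 66.3 and 63.8 FPKM (adjusted p = 0.00084, log2 fold change 1.299, SE 0.11). Mcoln1, the calcium channel TRPML1, was at 49.8, 48.5 and 43.3 FPKM with vehicle and 45.8, 58.4 and 57.0 FPKM with arachidonic acid. The groups overlapped through replicate 1, and the adjusted p was 0.23 with it and 0.0097 without it.

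Cd68 (ENSMUSG00000018774), a LAMP-family glycoprotein best known as a macrophage marker, had the largest fold change of the list on the log2(FPKM + 1) scale, other than without arachidonic acid replicate 2 (1.64, against 1.71 for Lipa), and the widest spread. It was at 2.14, 2.02 and 1.53 FPKM with vehicle and at 3.52, 23.9 and 16.8 FPKM with arachidonic acid. All 3 treated libraries were above the vehicle libraries, replicate 1 by far the least (adjusted p = 0.028, log2 fold change 2.13, SE 0.59). Without replicate 1 the log2 fold change was 2.87 (adjusted p = 3.8e-06). Its call was lost when any single library but arachidonic acid replicate 1 was left out (adjusted p = 0.074 to 0.09), with low genes kept in (adjusted p = 0.076) and in limma-voom run on recovered fragments (adjusted p = 0.093). Of 14 leukocyte markers 11 were under 1 FPKM in every library, with Ptprc at most 0.0474, Adgre1 at most 0.0168 and Csf1r at most 0.151 FPKM in any library and Fcgr1 listed at 0 in all 6. The macrophage marker Mrc1, however, was at 0.00719, 0.103 and 0.0767 FPKM with vehicle and 0.915, 1.36 and 1.101 FPKM with arachidonic acid, and Itgam at 0.141 to 0.146 and 0.374 to 0.455 FPKM. Both were too low to be tested, and neither had overlapping groups. C1qa, also too low to be tested, went the other way, from 0.0257, 0.131 and 0.274 FPKM with vehicle to 0 in every arachidonic acid library. Fcer1g was at 0.964 ± 0.350 FPKM with vehicle and 0.804 ± 0.239 FPKM with arachidonic acid, with overlapping groups, and was not tested either. The summed level of the 14 markers was 3.99 to 5.54 FPKM with vehicle and 6.83 to 8.06 FPKM with arachidonic acid. Cd14, which made up 2.29 to 3.01 and 3.97 to 4.60 FPKM of that, was the only marker of them tested and rose. The part of these markers in the rise of Cd68 was not tested.

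Of the 7 genes that handle lipids in the lysosome 4 rose, 2 fell and 1 did not pass. Over all tested genes 20.8% were higher and 19.4% lower. Lipa (ENSMUSG00000024781), the acid lipase that splits cholesteryl esters and triglycerides, whose promoter printed above holds no CACGTG, rose from 6.58, 6.78 and 6.84 to 22.5, 30.9 and 26.1 FPKM. The vehicle libraries hardly differed, every treated library lay far above them, and the log2 fold change of 1.82 (SE 0.12, adjusted p = 0.00041) had the smallest p of the list with all libraries. Asah1, the acid ceramidase, rose from 68.8, 70.9 and 73.3 to 101.7, 126.6 and 119.8 FPKM (adjusted p = 0.0026, log2 fold change 0.69, SE 0.09). Smpd1, the acid sphingomyelinase that makes ceramide, did not pass, its means being 5.32 ± 0.181 and 5.69 ± 0.530 FPKM (adjusted p = 0.54, log2 fold change 0.08, SE 0.10). Psap, the precursor of the saposins that present sphingolipids to hydrolases, was at 148, 150.3 and 142 FPKM with vehicle and at 159, 195 and 196 FPKM with arachidonic acid. It passed with all libraries (log2 fold change 0.31, adjusted p = 0.036). That call was lost without any single library other than arachidonic acid replicate 1 (adjusted p = 0.088 to 0.12), with no filter, after quantile normalization and under the replicate block (adjusted p = 0.075, 0.056 and 0.057).

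The partners of cholesterol export moved apart. Npc1 (ENSMUSG00000024413), the membrane protein that passes cholesterol out of the lysosome, rose from 4.32, 6.15 and 6.02 to 9.04, 16.2 and 13.6 FPKM (adjusted p = 0.0098, log2 fold change 1.08, SE 0.22). Npc2 (ENSMUSG00000021242), the soluble protein that hands cholesterol to it, fell from 147, 152 and 148 to 119, 111 and 111 FPKM (adjusted p = 0.0039, log2 fold change -0.38, SE 0.06). Npc2 remained the more abundant transcript in every library, and the ratio of Npc1 to Npc2 went from 0.0369 ± 0.00644 to 0.115 ± 0.0352. Ppt1, the thioesterase that removes palmitate from proteins, fell from 39.0, 38.4 and 39.2 to 30.8, 18.9 and 21.4 FPKM (adjusted p = 0.015, log2 fold change -0.72, SE 0.17). Leaving out vehicle replicate 1, 2 or 3 gave adjusted p = 0.059, 0.052 and 0.055, and leaving out arachidonic acid replicate 3 gave adjusted p = 0.056. Ppt1 shares 129 annotated bases on the opposite strand with Cap1. Cap1 was at 123 to 134 FPKM with vehicle and 155 to 162 FPKM with arachidonic acid.

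**Figure D3:**
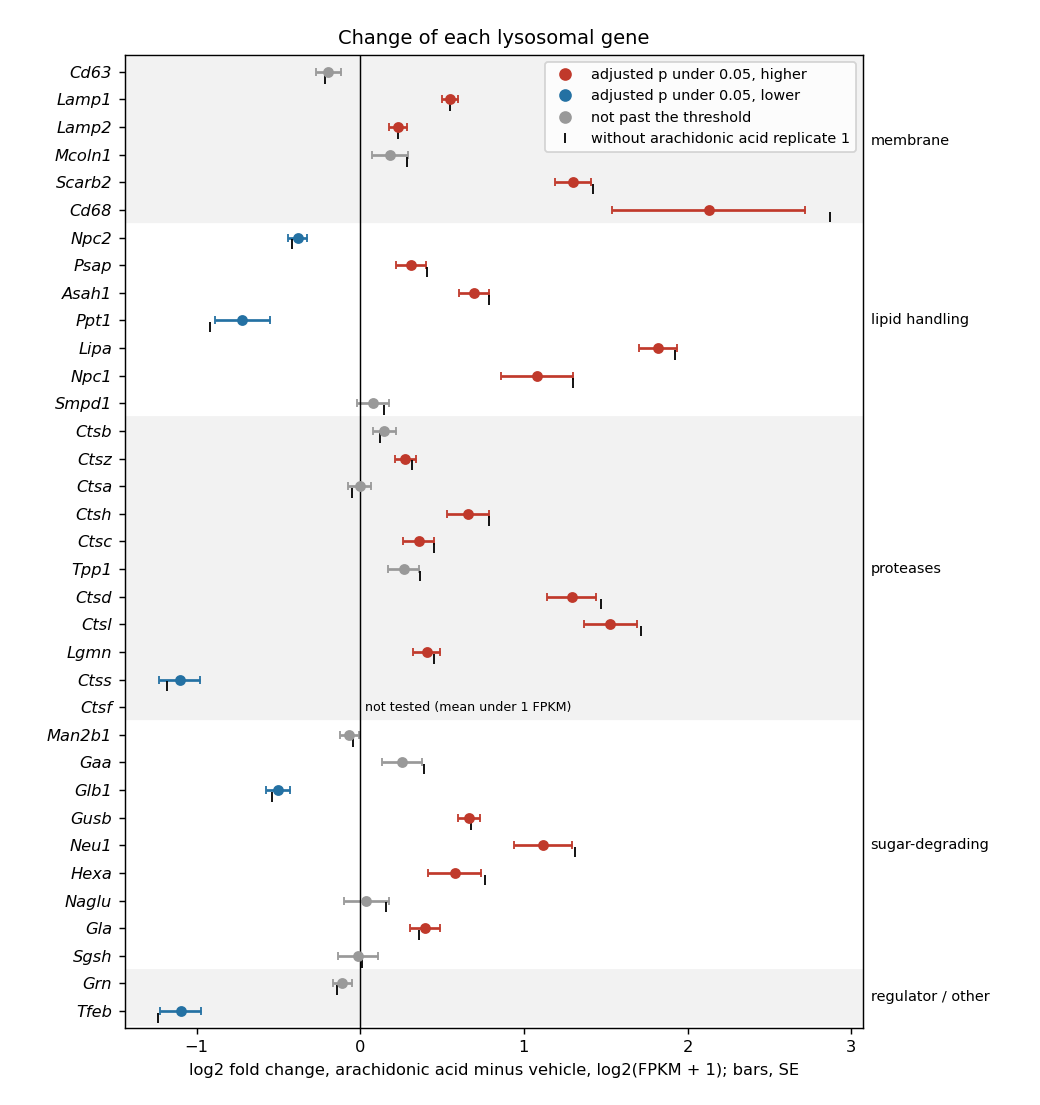
Log2 fold change of the 34 tested lysosomal genes with its SE, on the log2(FPKM + 1) scale, red for higher, blue for lower and grey for not past the threshold, with a black tick for the value without arachidonic acid replicate 1. Most red points lie between 0.23 and 1.82, Cd68 stands at 2.13 with the widest bar, and the blue points are Npc2, Glb1, Ppt1, Tfeb and Ctss.

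Of the 11 proteases 10 were tested, of which 6 rose, 1 fell and 3 did not pass. Over all tested genes 20.8% were higher and 19.4% lower. Ctsd (ENSMUSG00000007891), the main aspartic protease of the lysosome, rose from 53.0, 50.9 and 53.0 to 100.6, 143 and 151 FPKM (adjusted p = 0.0018, log2 fold change 1.29, SE 0.15). It climbed from rank 16 or 17 among the 35 genes to between rank 7 and 10. Ctsl (ENSMUSG00000021477), a cysteine endoprotease, rose from 30.7, 27.4 and 26.3 to 63.7, 92.3 and 96.8 FPKM (adjusted p = 0.0014, log2 fold change 1.53, SE 0.16). In both genes replicate 1 lay between the vehicle libraries and the other treated ones without touching the vehicle range. Ctss (ENSMUSG00000038642), a cysteine protease known for antigen processing, went the other way, from 4.62, 4.60 and 5.40 to 2.04, 1.70 and 1.47 FPKM (adjusted p = 0.0017, log2 fold change -1.10, SE 0.13). The ratio of Ctsd to Ctsb was 0.231, 0.202 and 0.223 with vehicle and 0.367, 0.523 and 0.607 with arachidonic acid. The ratio of Ctsl to Ctss was 6.65, 5.95 and 4.88 with vehicle and 31.3, 54.3 and 65.7 with arachidonic acid.

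The cathepsin gene highest in level did not pass. Ctsb, a cysteine protease with carboxydipeptidase activity, was at 229, 252 and 238 FPKM with vehicle and 274, 274 and 248 FPKM with arachidonic acid (log2 fold change 0.15, adjusted p = 0.13), with overlapping groups. Of the summed FPKM of 8 cathepsin genes (Ctsb, Ctsc, Ctsd, Ctsf, Ctsh, Ctsl, Ctss and Ctsz) Ctsb held 36.7% ± 1.76 with vehicle and 29.2% ± 3.55 with arachidonic acid. The share of Ctsd went from 8.01% ± 0.232 to 14.3% ± 1.94 and that of Ctsl from 4.31% ± 0.323 to 9.15% ± 1.32. Ctsz, a carboxypeptidase, was the second in level and rose from 183 ± 5.25 to 222 ± 11.9 FPKM, while its share was 28.1% ± 0.748 and 24.3% ± 0.861. These shares, like the ratios between genes given here, were chosen after the values had been seen and carry no test.

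Among the other proteases, Ctsh, an aminopeptidase, rose from 76.6 ± 7.39 to 122 ± 19.0 FPKM (log2 fold change 0.66, adjusted p = 0.009). Lgmn, the asparaginyl endopeptidase that trims several cathepsins, rose from 23.2 ± 1.55 to 31.1 ± 2.12 FPKM (log2 fold change 0.41, adjusted p = 0.0098). Ctsc, which activates serine proteases of granules in leukocytes, rose from 67.4 ± 3.27 to 86.9 ± 9.69 FPKM, a call lost without any single library other than arachidonic acid replicate 1 (adjusted p = 0.051 to 0.089) and with no filter (adjusted p = 0.052). The call of Ctsz was lost without vehicle replicate 2 or 3 and without arachidonic acid replicate 2 or 3 (adjusted p = 0.056 to 0.066). Tpp1, the tripeptidyl peptidase, had treated libraries at 65.5, 82.1 and 79.7 FPKM, all above the vehicle ones at 60.0, 65.2 and 62.6, but did not pass with replicate 1 (adjusted p = 0.067, and 0.0011 without it). Ctsa, a carboxypeptidase, did not pass and had overlapping groups, at 162 ± 8.24 and 162 ± 9.48 FPKM. Ctsf was the 1 gene too low to test, at 1.14, 0.956 and 0.683 FPKM with vehicle and 0.269, 0.384 and 0.761 FPKM with arachidonic acid.

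Of the 9 enzymes that take apart sugar chains 4 rose, 1 fell and 4 did not pass. Over all tested genes 20.8% were higher and 19.4% lower. Ctsa, Neu1 and Glb1 encode the 3 proteins of a lysosomal complex in which cathepsin A protects the sialidase NEU1 and the beta-galactosidase GLB1, and their transcripts parted. Neu1 (ENSMUSG00000007038) rose from 30.2, 32.0 and 25.8 to 48.8, 74.9 and 73.3 FPKM (adjusted p = 0.0045, log2 fold change 1.12, SE 0.18). Glb1 (ENSMUSG00000045594) fell from 49.1, 55.0 and 55.9 to 39.4, 36.7 and 35.8 FPKM (adjusted p = 0.004, log2 fold change -0.50, SE 0.08). Neither gene's groups overlapped, and the ratio of Neu1 to Glb1 was 0.616, 0.582 and 0.461 with vehicle and 1.24, 2.04 and 2.05 with arachidonic acid.

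Hexa (ENSMUSG00000025232), the alpha subunit of beta-hexosaminidase A, which degrades GM2 ganglioside, was at 18.0, 20.2 and 18.5 FPKM with vehicle and 21.8, 32.9 and 32.7 FPKM with arachidonic acid (adjusted p = 0.029, log2 fold change 0.58, SE 0.16). Its call was lost with no filter (adjusted p = 0.07) and without any single library other than arachidonic acid replicate 1 (adjusted p = 0.065 to 0.097). Gm2a, the activator protein that presents GM2 to this enzyme, rose from 2.73 ± 0.224 to 6.04 ± 0.896 FPKM (log2 fold change 0.91, adjusted p = 0.0032).

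**Figure D4:**
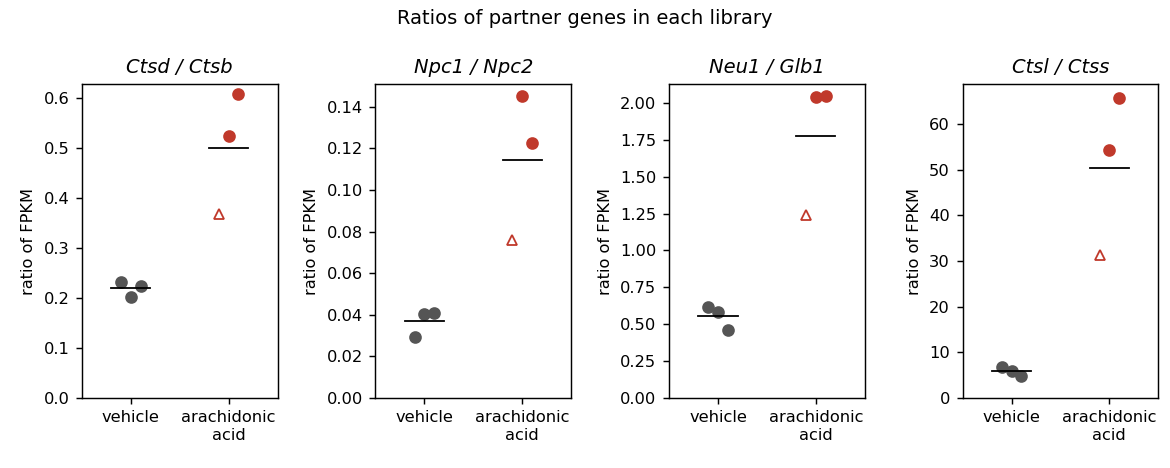
Ratio of FPKM between partner genes in each library, with grey points for vehicle, an open red triangle for arachidonic acid replicate 1, red points for replicates 2 and 3 and a line at each group mean, on axes that start at 0. The vehicle points of Ctsd to Ctsb lie between 0.202 and 0.231, and in all 4 ratios each arachidonic acid library lies above every vehicle library.

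Gusb (ENSMUSG00000025534), beta-glucuronidase, at times used as a reference gene for quantitative PCR, rose from 37.6, 38.8 and 43.0 to 62.4, 64.0 and 64.3 FPKM (adjusted p = 0.0014, log2 fold change 0.66, SE 0.07). Gla, alpha-galactosidase A, rose from 9.07 ± 0.701 to 12.2 ± 0.794 FPKM (log2 fold change 0.39, adjusted p = 0.016), a call lost without vehicle replicate 1 or 2 and without arachidonic acid replicate 3 (adjusted p = 0.0503 to 0.061). Gaa, which digests glycogen, did not pass with replicate 1, at 57.4, 62.0 and 58.4 FPKM with vehicle and 58.5, 77.3 and 78.8 FPKM with arachidonic acid (adjusted p = 0.13, and 0.00071 without it). The enzymes of heparan sulfate breakdown, Naglu and Sgsh, and the mannosidase gene Man2b1 did not pass and had overlapping groups, with log2 fold changes of 0.04, -0.01 and -0.07. Naglu was at 11.3 ± 1.295 FPKM with vehicle and 11.7 ± 1.85 FPKM with arachidonic acid, Sgsh at 4.74 ± 0.659 and 4.68 ± 0.462 FPKM, and Man2b1 at 65.0 ± 1.501 and 62.0 ± 1.95 FPKM.

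The members of other lysosomal lists were read in the same fit. Of 29 tested other hydrolases and their activators 11 rose and 5 fell, at a median log2 fold change of 0.26 (17 and 6 without arachidonic acid replicate 1), beside the 20.8% higher and 19.4% lower of all tested genes. Besides Gm2a, Galns, a sulfatase, rose from 9.66 ± 1.35 to 15.6 ± 1.65 FPKM. Ctse, an aspartic protease of endosomes, was at 0.0434 to 0.0560 FPKM with vehicle and 2.34, 7.18 and 5.65 FPKM with arachidonic acid. Hyal1 was at 0.633 ± 0.0364 FPKM with vehicle and 5.34 ± 3.46 FPKM with arachidonic acid. Ctse and Hyal1 passed the filter only for their treated values, yet count among the 11 that rose. Of 24 other membrane proteins 9 rose and 4 fell (37.5% and 16.7%), with a median of 0.01 (10 and 8 without replicate 1). Sidt2 rose from 59.2 ± 1.93 to 80.7 ± 1.16 FPKM, and Mcoln2, a relative of Mcoln1, fell from 7.51 ± 1.04 to 4 ± 0.599 FPKM. Laptm4a fell from 179 ± 9.51 to 143 ± 1.58 FPKM.

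Genes of the V-ATPase, the pump that acidifies the lysosome, moved mostly upward, with 11 higher, 1 lower and 5 not passing of 17 tested. That is 64.7% higher and 5.88% lower, beside 20.8% and 19.4% of all tested genes. The median was 0.36, and 13 were higher and 1 lower without replicate 1. Atp6v0a2, a membrane subunit, rose from 41.9, 40.7 and 39.6 to 63.6, 65.3 and 63.1 FPKM (adjusted p = 0.00092, log2 fold change 0.64, SE 0.06). Atp6v1a, the catalytic subunit, rose from 44.9 ± 2.59 to 76.1 ± 9.19 FPKM and Atp6v0d1 from 33.0 ± 1.83 to 53.2 ± 5.04 FPKM. Atp6v0a4, the subunit isoform known from kidney and inner ear, was listed at 0 in all 3 vehicle libraries, against 1.85, 5.15 and 5.16 FPKM with arachidonic acid. So it was tested only for its treated values, yet counts among the 11 that rose. Its exons share 259 annotated bases on the same strand with D630045J12Rik, which was at 1.33 to 1.80 and 4.48 to 7.30 FPKM.

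Of 19 genes of mannose 6-phosphate tagging and sorting 5 rose and 3 fell, with a median of 0.12 (8 and 3 without replicate 1). The shares with all libraries, 26.3% and 15.8%, stand beside 20.8% and 19.4% of all tested genes. Igf2r, the large mannose 6-phosphate receptor, rose from 49.8, 56.0 and 55.5 to 95.9, 169 and 147 FPKM (adjusted p = 0.0041, log2 fold change 1.299, SE 0.20). The other receptor gene, M6pr, added here after its values were seen, was at 80.3 ± 4.24 and 87.0 ± 1.92 FPKM. It did not pass (log2 fold change 0.12, adjusted p = 0.18). Gnptab, whose enzyme makes the tag, fell from 42.5 ± 0.890 to 32.5 ± 2.95 FPKM (log2 fold change -0.38, adjusted p = 0.011). Sort1, a receptor that sorts some hydrolases without the tag, rose from 14.3 ± 0.289 to 18.5 ± 1.48 FPKM, and Gga2, a sorting adaptor, fell from 26.9 ± 2.87 to 19.7 ± 2.39 FPKM. Of 23 relatives of Tfeb and genes of mTORC1 signalling at the lysosome 5 rose and 4 fell, with a median near 0. These shares, 21.7% and 17.4%, were near the 20.8% and 19.4% of all tested genes. Without replicate 1 the counts were 7 and 7, where 27.5% and 32.4% of all tested genes were called. Rraga, a GTPase of that pathway, rose from 39.9 ± 2.05 to 53.1 ± 2.09 FPKM and Rheb, the activator of mTORC1, from 36.1 ± 0.878 to 43.4 ± 1.35 FPKM. The sestrin genes Sesn1 and Sesn3, inhibitors of the pathway, fell, Sesn1 from 15.4 ± 1.21 to 8.16 ± 1.75 FPKM, and Sesn3 from 27.8 ± 1.98 to 17.1 ± 3.81 FPKM. Sesn2, the other sestrin gene, added here after its values were seen, was at 11.6 ± 1.47 and 18.5 ± 5.22 FPKM and did not pass (log2 fold change 0.60, adjusted p = 0.063). Without arachidonic acid replicate 1 it was higher (log2 fold change 0.84, adjusted p = 0.00032). The rest of this list's calls were added after their values were seen. Besides the sestrin genes, Rragd fell from 22.6 ± 1.11 to 16.4 ± 2.18 FPKM (adjusted p = 0.017). Lamtor4 fell from 60.6 ± 4.12 to 48.0 ± 3.40 FPKM (adjusted p = 0.019). Besides Rraga and Rheb, the genes Fnip2, Mtor and Rptor rose.

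Autophagy genes, which feed the lysosome, gave 11 higher and 2 lower of 35 tested, with a median of 0.20 (15 and 5 without replicate 1). The shares with all libraries, 31.4% and 5.71%, stand beside 20.8% and 19.4% of all tested genes. Atg9b (ENSMUSG00000038295), a scramblase of early autophagosome membranes, rose from 46.2, 43.5 and 34.1 to 251, 547 and 506 FPKM (adjusted p = 0.00094, log2 fold change 3.30, SE 0.30). Its exons share 294 annotated bases with Nos3 on the opposite strand, which was under 1 FPKM in every library. The cargo receptors Sqstm1 and Tax1bp1 rose from 113 ± 1.12 to 238 ± 42.9 FPKM and from 89.1 ± 2.74 to 181 ± 24.5 FPKM, and Gabarapl1, an ATG8 protein, from 20.3 ± 2.30 to 48.2 ± 6.80 FPKM. Of 18 tethering and fusion genes 9 rose and 1 fell, or 50% and 5.56% (10 and 3 without replicate 1). The 1 that fell, Stx17, went from 27.6 ± 1.29 to 20.2 ± 0.993 FPKM. Plekhm2 rose from 12.2 ± 0.252 to 16.3 ± 0.194 FPKM, Vps18 from 8.06 ± 0.613 to 11.4 ± 0.470 FPKM, and Arl8a, a GTPase that moves lysosomes along microtubules, from 25.1 ± 2.09 to 41.7 ± 8.74 FPKM.

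Only 4 of 9 inhibitors of cathepsins and related proteases were expressed enough to be tested, and 3 rose and 1 fell with and without replicate 1. The shares of 75% and 25% rest on these 4 genes, beside 20.8% higher and 19.4% lower among all tested genes. Without replicate 1 the shares over all tested genes were 27.5% and 32.4%. Cst3, the secreted cystatin C, fell from 189 ± 11.4 to 144 ± 14.5 FPKM, while Cstb, the cytosolic cystatin B, rose from 80.1 ± 6.60 to 118 ± 17.4 FPKM and Serpinb6a from 140.5 ± 8.13 to 208 ± 6.18 FPKM. Cst6, which is among the 3 that rose, went from 0.487 ± 0.138 to 2.09 ± 0.130 FPKM and passed the filter only for its treated values. Of the genes named from these lists for their small p, 7 lost their calls when 1 library was left out. Gga2 did without vehicle replicate 1 or 2, Sort1 without vehicle replicate 2 or 3, Arl8a without vehicle replicate 1 or 3 and Cst3 without vehicle replicate 1, and each of these also without arachidonic acid replicate 2 or 3 (adjusted p = 0.0502 to 0.091). Rheb did without vehicle replicate 1 or 2 or arachidonic acid replicate 3 (adjusted p = 0.058 to 0.071), Cstb without vehicle replicate 3 (adjusted p = 0.053) and Sesn3 without vehicle replicate 1 (adjusted p = 0.058). Gga2 also lost its call with no filter (adjusted p = 0.056).

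**Figure D5:**
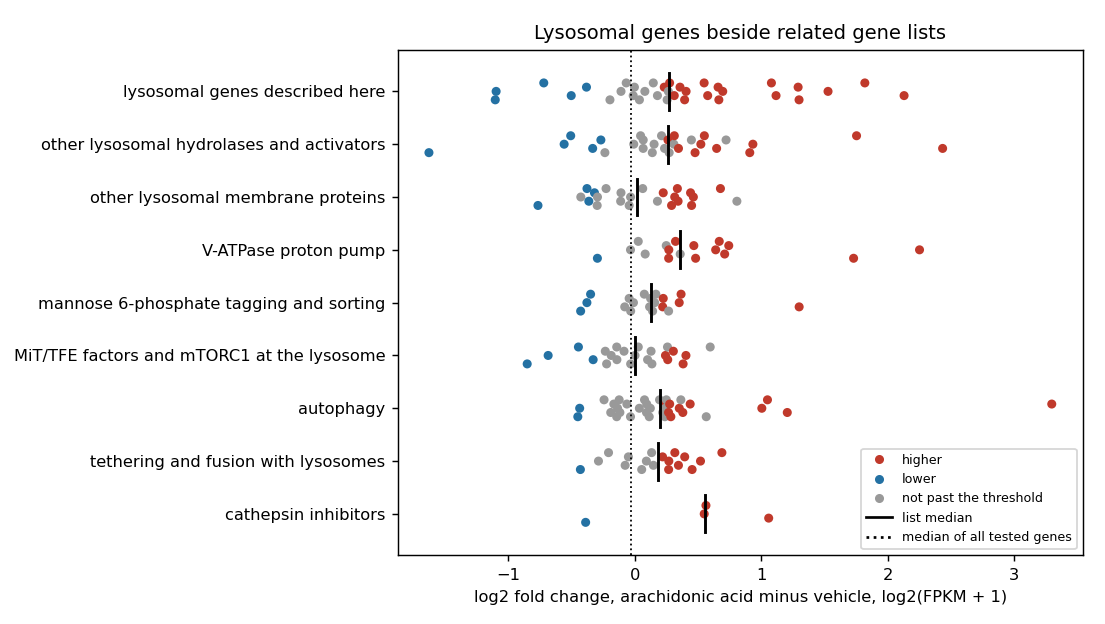
Log2 fold change of each tested gene of the lysosomal genes and of 8 related lists, on the log2(FPKM + 1) scale, red for higher, blue for lower and grey for not past the threshold, with a black bar at the median of each list and a dotted line at the median of all tested genes, -0.03. The bars of the lysosomal genes, at 0.27, and of the V-ATPase, at 0.36, lie right of the dotted line, and Atg9b is the point at 3.30.

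No source says whether counting used strand, so genes with overlapping exons could share reads. Among the genes that rose or fell, Lamp1 shares 249 annotated bases on the opposite strand with Grtp1. Grtp1 was at 32.3 to 43.3 FPKM with vehicle and 32.8 to 34.8 FPKM with arachidonic acid. Npc1 shares 511 on the opposite strand with Rmc1. Like Npc1, Rmc1 was higher in every treated library, at 21.2 to 21.8 FPKM with vehicle and 24.9 to 32.7 FPKM with arachidonic acid. The part of shared reads in the rise of Npc1 was not tested. Glb1 shares 165 on the same strand with Tmppe, which was at 7.17 to 9.01 FPKM with vehicle and 5.26 to 7.05 FPKM with arachidonic acid. The transcript that overlaps Ctsl most, Gm47123, was listed at 0 in every library. On the same strand Ctsd shares 808 bases with Gm49369 and Ctsl 395 with Gm49230, both also listed at 0 throughout. Serpinb6a shares 762 on the opposite strand with Nqo2. Nqo2 was at 17.3 to 19.9 FPKM with vehicle and 7.52 to 13.6 FPKM with arachidonic acid. Some other overlaps are not described here.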

How the data were processed

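The 35 genes, the other gene lists and the tests were chosen with earlier results of these data known. The authors deposited FPKM per gene and library. The labels name no unit, and it was inferred from the values. Multiplied by the mean transcript length in GENCODE M21, 96.3% to 96.7% of the values under 100 fragments fell within 0.1 of a whole multiple of 1 step per library, which gives the depth. Per the submitters' processing notes, which give no roles, the tools were featureCounts 1.5.0-p3, StringTie 1.3.3b and HISAT2 2.0.5. No source used here gives the genome build or annotation, and the printed coordinates are those of RefSeq on GRCm38.p6.

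Genes whose mean over the 6 libraries was 1 FPKM or more were fitted as log2(FPKM + 1) by limma 3.58.1 in R 4.3.3, with a group term and its trend option. Tests were two-sided, with Benjamini-Hochberg adjustment over all 12913 genes. With 1 added, fold changes of low genes are understated. The code was tested on simulated data. The text names all 35 genes and, of each other list, up to 4 with the smallest p and a few others. Some genes that this would name are not reported here, although the counts include them. The labels do not say that replicate numbers pair the cultures, so the main test has no term for them. Alternatives were no filter, a pseudocount of 0.1, a filter at 5 FPKM, quantile, TPM and median-of-ratios scaling, the replicate block, each library left out, and, chosen after seeing the data, limma-voom on recovered fragments. Python 3.11.15 with pandas 2.3.3 and matplotlib 3.10.9 made tables and figures.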

Additional observations from a re-analysis of the deposited data

How the results depend on the processing

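Of the 23 lysosomal genes that rose or fell, 11 of 18 and 4 of 5 kept their call in every alternative that could test them, and none that was called changed its direction. With 1 library left out, all genes called higher numbered 1712 to 3554 and lower 1245 to 4192, and the lysosomal genes called higher 11 to 21 and lower 4 to 6. The lowest counts of risers among the lysosomal genes came without vehicle replicate 2 and without arachidonic acid replicate 3, at 11 each. Under the other alternatives 14 to 19 lysosomal genes were higher, the count of 14 being that with no filter, and 4 or 5 were lower. With the replicate block 2263 genes were higher and 1998 lower, among them 17 and 5 lysosomal genes. Deviations of libraries with the same number correlated at -0.0811, 0.210 and -0.0623 across genes, so the numbers were not taken as pairs. With 1 library left out, an arm of 2 remained in the fit.

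Of the uncalled genes 3 turned direction, all near 0. Ctsa was at 0.056 with TPM scaling and 0.015 with median-of-ratios scaling, and between -0.051 and 0.038 with 1 library left out. Sgsh was at 0.037 and 0.0026 with those scalings, and between -0.090 and 0.073 with 1 library left out. Naglu lay between -0.054 and 0.157 with 1 library left out. The cause was not tested. Tpp1 passed with TPM scaling (adjusted p = 0.045).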
